A study of Mus musculus with 61 samples.

Results

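The contacts described here are those of Emu, the intronic enhancer of the mouse immunoglobulin heavy chain locus (Igh), in resting and activated primary B cells. They come from the 8 libraries captured with the Emu probe in the activation series, chosen by probe and time from the titles, out of 61 libraries in all. There were 3 libraries at 48h and 3 at 72h of activation, and 2 at 0h. The activated cells grew in complete RPMI medium with LPS and IL4, and the label that reads "48h activated" or "72h activated" there reads WT at 0h. The titles of all 8 libraries carry B18 and AIDKO, so both the activated and the resting cells lacked AID by their name, and all were labelled clone 1. The title of 1 library at 0h, replicate 1 here, names replicates 1 and 3 together. Nothing says whether replicates came from separate cultures or animals, so p-values measure only the spread between these libraries, which may be technical. The labels also give a larger number of crosslinked cells at 0h than at the other times, and this cannot be told apart from activation.

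Emu lies between the J segments and the first constant gene and works with the enhancers of the 3′ regulatory region, of which hs4 is one. In class switch recombination, activated B cells replace one constant gene with another that lies further along the locus. LPS with IL4 induces transcription ahead of the constant gene of IgG1, and AID then starts the DNA breaks, a step that AID-deficient cells cannot take.

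In Tri-C, fragments ligated to a captured viewpoint are read together, and each read that joins the viewpoint to 2 further fragments gives a contact with 2 ends. Each deposited map is a square matrix of 1 kb bins whose values, called signal below, sum to 300000 per library. The files hold no genome coordinates, so positions are kb from the first bin. By the bins left empty at each probe, the hs4 viewpoint lies at 31 kb, IgG2a at 85 kb, IgG1 at 142 kb, IgG3 at 169 kb and Emu at 229 kb. A site is the window of 11 kb around such a bin. A signal of 1% means 1% of a library's summed signal, with the signal of a contact shared between its 2 ends where a single place is meant. It is not 1% of the number of contacts.

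The signal behaved as whole contacts divided by a small whole number for each of the 2 bins. Undoing this division gave 10797 and 14667 contacts in the 0h libraries, 20473, 20645 and 20989 at 48h, and 12094, 15358 and 14665 at 72h. Counts of these recovered contacts are given beside the signal as depth and as an alternative measure, since the division was inferred from the values. Replicate 1 at 0h stood apart in single bin pairs far from the viewpoint. Its pair at 115 with 117 kb held 2.73% of its signal from 14 contacts, and its pair at 67 with 95 kb held 1.76% from 18 contacts, while replicate 2 at 0h had 0 contacts in both. No source used here says whether the contacts piled up in 1 bin pair come from separate molecules. Results are also given without that library where it changes them.

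The share of Emu contacts at the IgG1 site rose at both times of activation. The IgG1 window held 6.32%, 6.23% and 6.14% of the signal at 48h, against 1.64% and 2.72% at 0h. At 72h it held 7.67%, 7.92% and 7.84%, set against the same 0h libraries. Every activated library lay far above both resting ones, and the activated libraries of each time lay within a narrow range. The log2 change was 1.56 ± 0.19 (SE) at 48h and 1.88 ± 0.19 at 72h, with adjusted p-values of 5.2e-05 and 4.5e-06 (limma, Benjamini-Hochberg over the 221 block pairs, sites and site pairs tested). In the list as a whole 7.69% were called at 48h and 9.5% at 72h, where called means an adjusted p under 0.05. In recovered contacts the window took 4.70%, 4.55% and 4.36% of the ends at 48h and 5.56%, 6.24% and 6.20% at 72h, against 1.29% and 1.63% at 0h. Without replicate 1 at 0h the log2 change was 1.19 at 48h and 1.52 at 72h, and both remained called.

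Contacts inside the IgG1 window rose as well. Contacts with both ends in the IgG1 window made up 4.41%, 4.64% and 4.15% of the signal at 48h, against 1.09% and 1.45% at 0h. At 72h they made up 5.14%, 5.64% and 6.22%. All activated libraries lay above both resting ones. For these contacts the log2 change was 1.79 ± 0.20 at 48h and 2.15 ± 0.20 at 72h (limma, adjusted p = 2.7e-05 and 2.7e-06). They rested on 668, 691 and 649 recovered contacts at 48h and 460, 689 and 738 at 72h, against 87 and 127 at 0h.

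**Figure D1:**
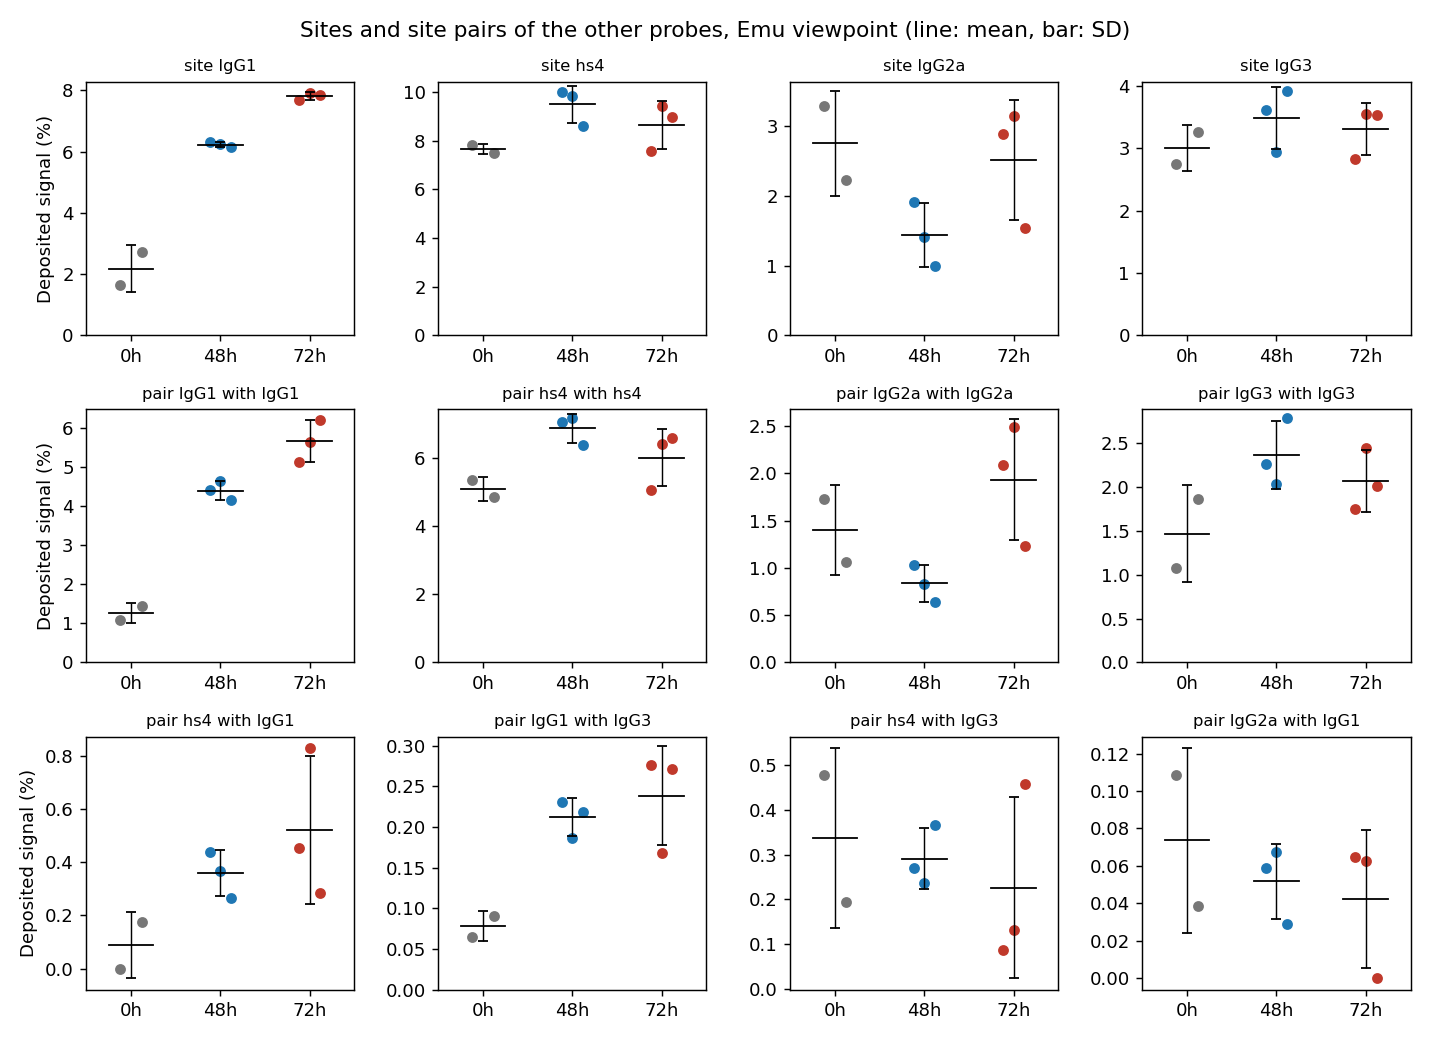
Deposited signal (% of the library, vertical axes from 0 unless an error bar reaches below it) at the sites of the other probes and in pairs of sites, for 0h, 48h and 72h. Points are libraries, lines are means and bars are SD (n = 2, 3 and 3). The IgG1 site and the IgG1 window with itself stand clear of 0h at both later times, while IgG3 overlaps 0h at both.

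At 1 kb the rise around IgG1 stood in 2 places, one at the probe's own bin and one nearer to hs4. Bin 142 kb, which holds the IgG1 viewpoint, had 1.35%, 2.12% and 1.40% of the signal at 48h and 1.85%, 2.49% and 2.40% at 72h, against 0.397% and 0.192% at 0h. Its log2 change was 2.45 ± 0.32 at 48h and 2.93 ± 0.32 at 72h (limma, adjusted p = 0.00067 and 4.7e-05). Bins 140 kb and 141 kb beside it were called at both times, with log2 changes of 3.42 and 1.69 at 48h and 3.45 and 2.31 at 72h. Of the 215 bins tested, 10 (4.65%) were called at 48h, 4.19% higher and 0.465% lower, and 15 (6.98%) at 72h, 5.12% higher and 1.86% lower. Bin 228 kb, beside the Emu viewpoint, was also called higher at both times. With replicate 1 or 2 at 0h left out, log2 changes at 48h were 2.22 and 1.38 for bin 135 kb in that order. They were 2.94 and 1.96 for bin 142 kb and 1.42 and 2.18 for bin 228 kb. At 72h the values were 3.42 and 2.58, 3.43 and 2.44, and 1.30 and 2.06 for the same bins. Bins 134, 140 and 141 kb stayed higher than at 0h in all these fits.

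The second place was bin 135 kb, outside the IgG1 window. It held 0.625%, 0.697% and 0.732% of the signal at 48h and 1.69%, 1.68% and 1.42% at 72h, against 0.253% and 0.133% at 0h. All activated libraries lay above both resting ones, as held for 14.4% of the bins tested at 48h and 14.9% at 72h. This gave a log2 change of 1.80 ± 0.32 at 48h and 3.00 ± 0.32 at 72h (limma, adjusted p = 0.0037 and 4.7e-05). Its neighbours at 134 kb and 136 kb were called higher at both times as well, but at 48h bin 136 kb had a log2 change of 0.94 without replicate 2 at 0h (limma, adjusted p = 0.12) and 3.49 without replicate 1. Bin 134 kb had no recovered contact end in either resting library.

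Bins 137 and 138 kb, between the 2 places, lay above 0h in all activated libraries and were not called, and bin 139 kb held at most 0.0958% in any library. Towards Emu, bin 166 kb near the IgG3 viewpoint was called higher at both times. It held 0.785%, 0.897% and 0.757% at 48h and 0.462%, 0.839% and 0.612% at 72h, against 0.259% and 0.175% at 0h. Bin 165 kb was called at 72h only, with a log2 change of 2.04 there and 1.74 at 48h, where its adjusted p was 0.083. Bin 8 kb, near the hs4 end of the map, had a log2 change of 3.05 at 72h (limma, adjusted p = 0.0499), from contact ends worth 6.5, 6 and 2.5 contacts, against 0 and 0.5 at 0h. The bin called lower at 48h was 178 kb, with 0.0531%, 0.222% and 0.102%, against 0.923% and 0.694% at 0h. Bins 8, 165 and 178 kb lost their calls without replicate 1 at 0h (adjusted p = 0.11, 0.067 and 0.059). Bin 166 kb lost its call at 72h without replicate 2 at 0h, at 1.21 (limma, adjusted p = 0.059).

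**Figure D2:**
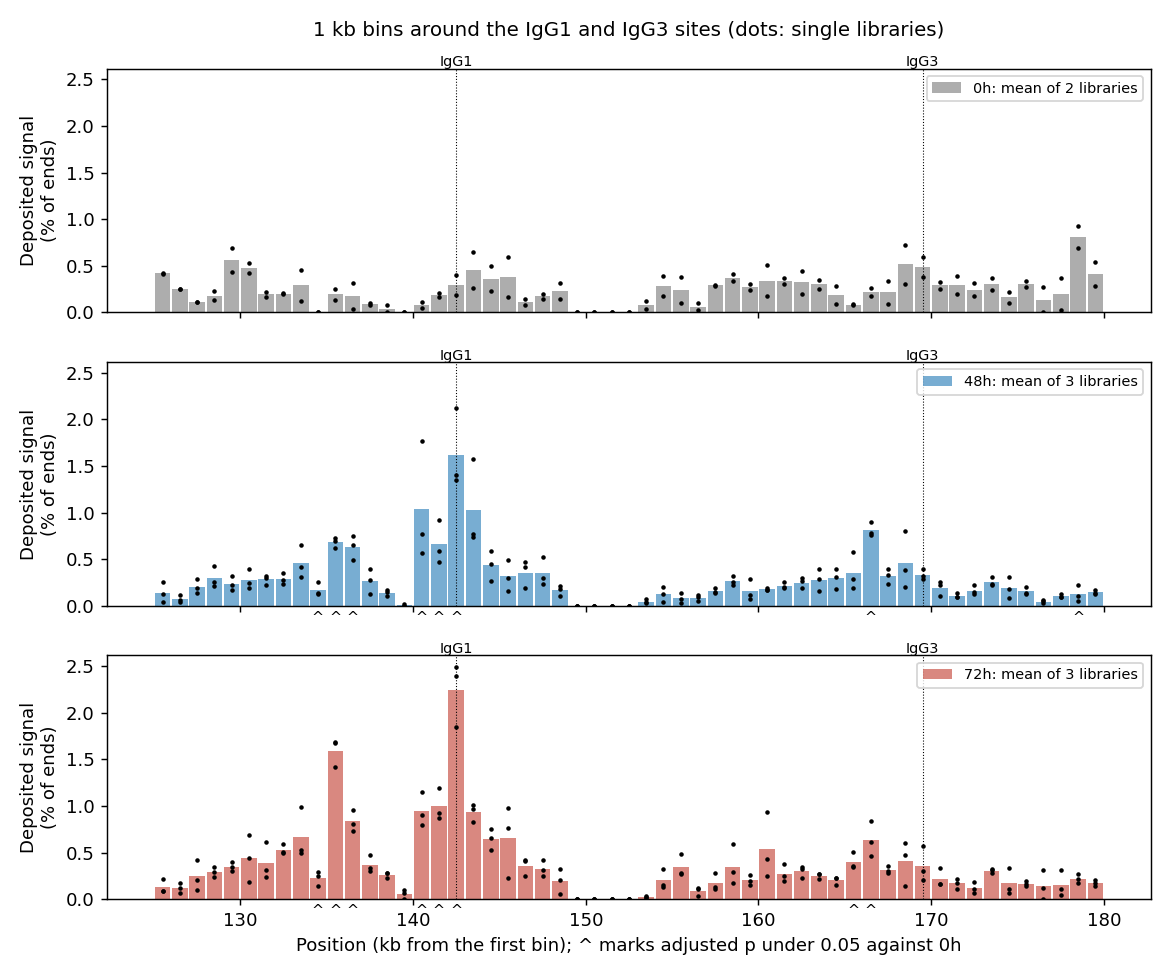
Deposited signal (% of the signal of contact ends) in 1 kb bins around the IgG1 and IgG3 viewpoints at 0h, 48h and 72h. Bars are means and dots are libraries. Dotted lines mark the bins of the IgG1 and IgG3 viewpoints, and a caret marks bins called against 0h. Signal stands at 135 kb and 140 to 143 kb after activation, with bin 142 kb tallest at 72h and bin 135 kb above 0h in every activated library.

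The IgG3 site as a whole was not called. It held 3.61%, 2.94% and 3.92% at 48h and 2.82%, 3.55% and 3.54% at 72h, against 2.74% and 3.27% at 0h. In the fit the log2 change was 0.21 ± 0.21 at 48h and 0.13 ± 0.21 at 72h (limma, adjusted p = 0.55 and 0.75). The groups overlapped at both times.

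The IgG2a site was not called either. It held 1.91%, 1.41% and 0.991% at 48h, below both resting libraries at 3.28% and 2.22%. At 72h it held 2.88%, 3.14% and 1.54%, which overlapped 0h. Its log2 change was -0.95 ± 0.35 at 48h and -0.17 ± 0.35 at 72h (limma, adjusted p = 0.10 and 0.82).

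At hs4 the signal differed from 0h by less than the test could call, but recovered contacts were called at 48h. The hs4 window held 10%, 9.85% and 8.60% of the signal at 48h and 7.56%, 9.44% and 8.96% at 72h, against 7.80% and 7.5% at 0h. All 48h libraries lay above both at 0h, and those at 72h overlapped them. Its log2 change was 0.31 ± 0.14 at 48h and 0.17 ± 0.14 at 72h (limma, adjusted p = 0.16 and 0.48). By voom on recovered contacts it was 0.42 at 48h with an adjusted p of 0.0053, and 0.30 at 72h with an adjusted p of 0.097. The signal was also called at 48h once contacts near the viewpoint were left out, at 0.56 (limma, adjusted p = 0.010).

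Reads that joined Emu, IgG1 and hs4 were few. The pair of hs4 with IgG1 held 0.439%, 0.368% and 0.267% of the signal at 48h and 0.452%, 0.829% and 0.284% at 72h, against 0 and 0.175% at 0h. These came from 101, 86 and 50 recovered contacts at 48h and 29, 94 and 42 at 72h, against 0 and 27 at 0h. The pair was called at 72h, with a log2 change of 3.12 ± 0.85 (limma, adjusted p = 0.028), and missed the threshold at 48h, at 2.70 ± 0.85 (adjusted p = 0.068). The difference between the times was not tested. At 48h it passed the threshold in 7 of 19 alternatives, among them median-of-ratios scaling (limma, adjusted p = 0.033) and the signal without contacts near the viewpoint (adjusted p = 0.012). Without replicate 1 at 0h, the library with 0, the log2 change was 0.94 at 48h and 1.36 at 72h (limma, adjusted p = 0.43 and 0.28). Without replicate 2 at 0h it was 4.46 at 48h (limma, adjusted p = 0.00031). By voom on recovered contacts the adjusted p was 0.076 at 48h and 0.097 at 72h.

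Set against what the 2 sites hold on their own, that pair gave no difference that the test could call. The observed share divided by the share expected from the signal at IgG1 and at hs4 was 0.348, 0.300 and 0.253 at 48h and 0.390, 0.555 and 0.202 at 72h, against 0 and 0.430 at 0h. Every value lay below 1, and the groups overlapped. The expected share counted ends of contacts within each window and took no account of distance. A value below 1 therefore does not show that the 2 sites met less often than their distance would give. The exact two-sided permutation p was 0.8 at 48h and 0.5 at 72h, where the smallest p that 3 libraries against 2 allow is 0.1. The adjusted p over the 18 single values tested in this way was 0.847 and 0.692.

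The other pairs of sites were not called. IgG1 with IgG3 held 0.231%, 0.186% and 0.219% at 48h and 0.276%, 0.168% and 0.271% at 72h, against 0.0651% and 0.0911% at 0h, from 4 and 6 recovered contacts in the 0h libraries. All activated libraries lay above both resting ones, with log2 changes of 1.28 ± 0.65 and 1.41 ± 0.65 (limma, adjusted p = 0.20 at each time). Pairs of hs4 with IgG2a, hs4 with IgG3 and IgG2a with IgG1 overlapped 0h at both times. IgG2a with IgG3 had 6, 0 and 0 recovered contacts at 48h and 9, 7 and 1 at 72h, against 6 and 19 at 0h, and was called lower at 48h by voom alone (adjusted p = 0.049). Contacts within the hs4 window and within the IgG3 window lay above 0h in all 48h libraries, and those within the IgG2a window below, but none of the 3 was called in the signal with all libraries and contacts. Contacts within the hs4 window were called at 48h by voom, at 0.48 (adjusted p = 0.0054), and in the signal without contacts near the viewpoint, at 0.70 (limma, adjusted p = 0.0053). Those within the IgG3 window were called at 48h without contacts near the viewpoint (limma, adjusted p = 0.029) and without replicate 2 at 0h (adjusted p = 0.021).

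Contacts that held the IgG1 window were also sorted by their other end. These contacts numbered 1257, 1188 and 1182 at 48h and 884, 1227 and 1080 at 72h, against 191 and 352 at 0h. Their other end lay in the IgG1 window itself in 53.5%, 59.3% and 51% of their signal at 48h and in 50.4%, 55.4% and 65.7% at 72h, against 50.2% and 36.3% at 0h. It lay outside every site and more than 20 kb from Emu in 15.5%, 15.5% and 22.8% at 48h and in 20.1%, 25% and 13.1% at 72h, against 31.9% and 32.5% at 0h. That class was lower in all activated libraries than in both resting ones. So was the IgG2a class, with 0.715%, 0.862% and 0.357% at 48h and 0.632%, 0.614% and 0 at 72h, against 4.98% and 0.972%. The IgG1 class was higher in all activated libraries, and those of hs4, IgG3 and near Emu overlapped 0h. For the class outside every site the exact permutation p was 0.1 at 48h and 0.2 at 72h (adjusted p over the 18 values 0.36 and 0.40). For IgG2a it was 0.1 at both times (adjusted p 0.36). No partner class passed a threshold of 0.05, which this design cannot reach.

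Across the map in blocks of 10 kb, 12 of 24 blocks (50%) were called at 48h, 5 higher (20.8%) and 7 lower (29.2%). At 72h 5 of 24 (20.8%) were called, 2 higher (8.33%) and 3 lower (12.5%). Libraries did not overlap between the groups in 25% of blocks higher and 45.8% lower at 48h, and in 29.2% higher and 20.8% lower at 72h. The comparisons at 48h and 72h share the 0h libraries, so a block called in both is not called on independent data. Since each map sums to a fixed total, a rise in one block lowers the others, and the median block changed by -0.53 at 48h and -0.12 at 72h on the log2 scale. Scaling by the median of ratios moved those medians up by 0.40 and 0.18 and gave 6 higher and 4 lower at 48h, and 3 higher and 2 lower at 72h. With replicate 1 or replicate 2 at 0h left out, 7 blocks were called at 48h in each case.

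The 2 blocks around IgG1 were higher at both times. The block at 140-150 kb held 6.23%, 5.88% and 5.84% at 48h and 7.35%, 7.43% and 7.20% at 72h, against 1.85% and 2.70% at 0h. The block at 130-140 kb, which lies mostly outside the IgG1 window, held 2.72%, 3.28% and 3.62% at 48h and 5.87%, 5.73% and 4.52% at 72h, against 1.58% and 1.75% at 0h. Log2 changes at 48h were 1.41 ± 0.19 and 0.93 ± 0.20 (limma, adjusted p = 0.0012 and 0.0071), and at 72h 1.70 ± 0.19 and 1.68 ± 0.20 (adjusted p = 0.00035 for both). In recovered contacts by voom, 140-150 kb was called at both times and 130-140 kb at 72h, its adjusted p at 48h being 0.063. In recovered contacts 130-140 kb held 2.82%, 3.44% and 4.61% at 48h, against 1.24% and 2.86% at 0h, so that 1 library at 48h lay below the higher resting one.

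Just on the hs4 side of the viewpoint, at 210-220 kb, contacts fell at both times in both units. The block held 4.48%, 3.85% and 3.78% of the signal at 48h and 3.71%, 4.40% and 3.84% at 72h, against 9.45% and 8.23% at 0h. Each resting library held more than any activated one by a wide margin. The log2 change was -1.13 ± 0.17 at 48h and -1.15 ± 0.17 at 72h (limma, adjusted p = 0.0013 and 0.0012). By voom on recovered contacts it was -0.90 at 48h and -0.94 at 72h, with adjusted p-values of 3.4e-10 and 3.3e-10. At 1 kb, bins 214, 219, 221 and 223 kb were called lower at 72h. Bin 223 kb held 1.09%, 0.917% and 0.935% there, against 2.05% and 2.04% at 0h. Each of these 4 bins lost its call when one or the other resting library was left out.

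Between IgG2a and hs4, the block at 60-70 kb fell in the signal at both times. It held 2.14%, 2.09% and 1.56% at 48h and 2.91%, 2.80% and 2.24% at 72h, against 5.48% and 5.08% at 0h. It changed by -1.46 ± 0.20 at 48h and -1.0 ± 0.20 at 72h as log2 values (limma, adjusted p = 0.0012 and 0.0074). By voom it was -0.76 at 48h (adjusted p = 0.0019) and -0.24 at 72h (adjusted p = 0.47), so the fall at 72h was called in the signal alone. The block at 170-180 kb, partly in the IgG3 window, fell by 1.07 at 48h and 0.78 at 72h in log2 signal, and its voom changes of -0.24 and -0.15 were not called.

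Apart from 220-230 kb, described below, 6 further blocks were called at 48h alone. Those at 30-40 kb and 40-50 kb, next to hs4, were higher, with log2 changes of 0.55 ± 0.18 and 0.45 ± 0.16 (limma, adjusted p = 0.046 for both). Their recovered contacts were called higher at both times by voom, at 0.62 and 0.72 at 48h and 0.53 and 0.50 at 72h. Blocks at 100-110, 150-160, 180-190 and 200-210 kb were lower in the signal at 48h, with log2 changes of -1.39, -0.81, -1.43 and -0.99. Of these 4, only 200-210 kb was called by voom, at -0.95 (adjusted p = 0.0014). Leaving out replicate 1 at 0h ended 5 of these 6 calls, with 30-40 kb kept, and leaving out replicate 2 at 0h ended 5, with 180-190 kb kept.

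**Figure D3:**
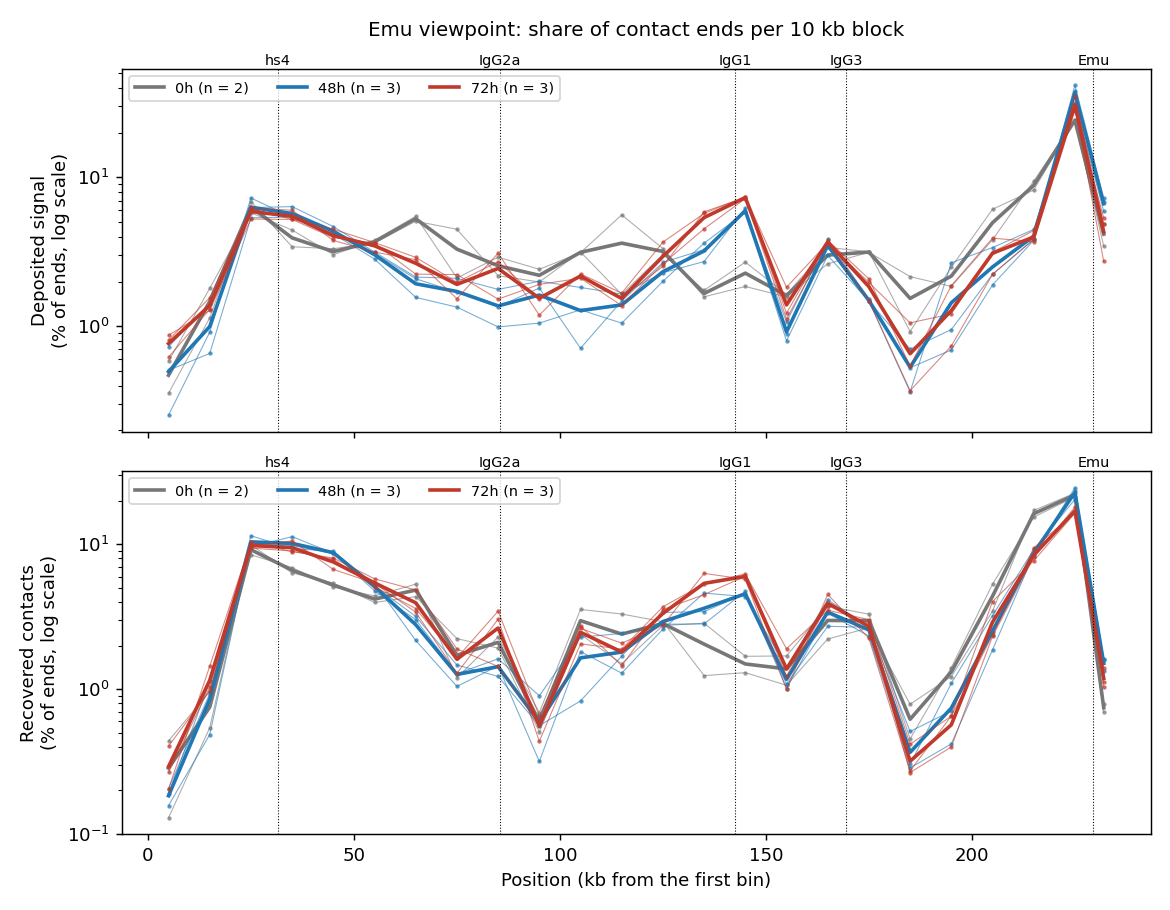
Share of contact ends (%, log scale) in 24 blocks of 10 kb along the map, in deposited signal above and in recovered contacts below. Thin lines are libraries and thick lines are means at 0h (n = 2), 48h (n = 3) and 72h (n = 3), and dotted lines mark the viewpoints. At 140-150 kb activated libraries lie above 0h in both panels, and at 210-220 kb they lie below it in both.

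Beside the viewpoint, the direction depended on the unit. The block at 220-230 kb held 31.8%, 38.1% and 41.7% of the signal at 48h and 28.2%, 29.1% and 35.1% at 72h, against 24.1% and 24.4% at 0h. In recovered contacts the same block held 20.5%, 23.4% and 24.7% at 48h and 16.5%, 16.5% and 18.1% at 72h, against 22.6% and 21.3% at 0h. The signal was called higher at 48h, with a log2 change of 0.61 ± 0.18 (limma, adjusted p = 0.033), and at 72h it was 0.34 ± 0.18 (adjusted p = 0.21). Voom on recovered contacts gave 0.06 at 48h (adjusted p = 0.71) and called the block lower at 72h, at -0.37 (adjusted p = 0.0037).

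A single bin pair took a large share of that signal. Bins 227 with 228 kb, next to the viewpoint, held 7.94%, 11.4% and 13.3% of the signal at 48h and 8.95%, 8.73% and 14.6% at 72h, against 1.66% and 3.99% at 0h. The pair had 156, 237 and 295 recovered contacts at 48h and 108, 129 and 218 at 72h, against 17 and 50 at 0h. Its divisors were 2 and 1 in all 8 libraries, near the lowest possible, so that few contacts gave much signal. All activated libraries of this series lay above both resting ones in signal and in contacts. The pair was called at both times in the signal. In the Emu libraries of a separate series, labelled 72h activated without TPL, the pair held 4.42%, 3.61% and 8.62% of the signal. Of these, 3.61% lay below the higher resting library. In recovered contacts voom called it at 48h (adjusted p = 0.046) and not at 72h (adjusted p = 0.070). With this pair left out, an alternative chosen after seeing the data, 220-230 kb had a log2 change of 0.42 at 48h (adjusted p = 0.064), and the call at 48h was also lost with either resting library left out (adjusted p = 0.086 and 0.085).

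The reach of the contacts turned with the unit as well. The share of ends more than 50 kb from Emu was 51.2%, 47.3% and 44% of the signal at 48h and 56.3%, 58.2% and 52.7% at 72h, against 54.9% and 52.4% at 0h. In recovered contacts it was 64.3%, 62.9% and 62.5% at 48h and 69.5%, 69.5% and 69.6% at 72h, against 54% and 55.1% at 0h. The 48h libraries thus lay below both resting ones in signal and above both in contacts. The mean difference at 48h was -6.17 percentage points in signal (exact permutation p = 0.2) and 8.69 in recovered contacts. Contacts whose ends lay within 10 kb of each other made up 76.1%, 82.5% and 84.3% of the signal at 48h and 75.2%, 76.5% and 80.7% at 72h, against 69.3% and 72.5% at 0h, with no overlap at either time (exact permutation p = 0.2 and 0.1).

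**Figure D4:**
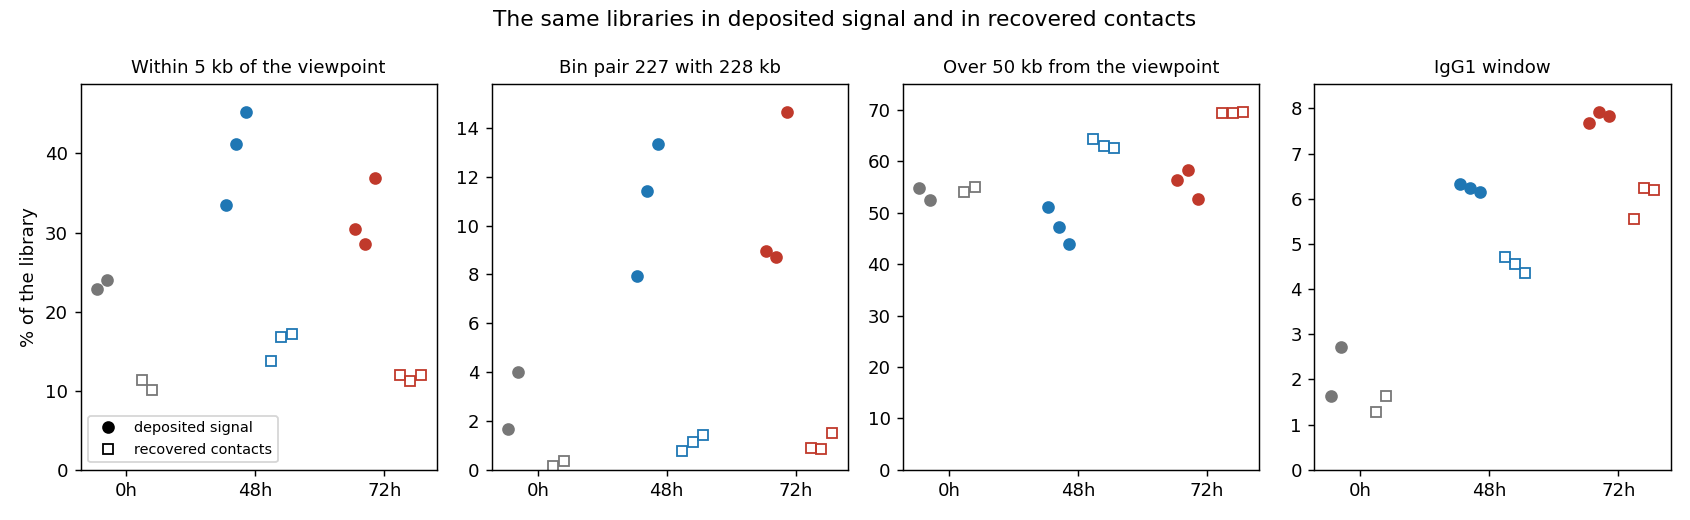
Share of each library (%, axes from 0) within 5 kb of the viewpoint, in bins 227 with 228 kb, over 50 kb from the viewpoint and in the IgG1 window, at 0h, 48h and 72h. Filled circles are deposited signal and open squares recovered contacts of the same libraries. The share over 50 kb away at 48h lies below 0h in signal and above it in contacts, while the IgG1 window lies above 0h in both.

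Among pairs of different or same 10 kb blocks, 15 of 207 were called at 48h and 18 of 207 at 72h. With sites and site pairs included, 4.98% of the 221 features were called higher and 2.71% lower at 48h, and 7.69% higher and 1.81% lower at 72h. Median-of-ratios scaling gave 15 higher and 4 lower at 48h, where the deposited scaling gave 11 higher and 6 lower. The pairs named below rested on 10 or more recovered contacts in whichever group was higher, and their libraries did not overlap, as held for 16.7% higher and 24.4% lower at 48h and 17.6% higher and 21.7% lower at 72h. Without replicate 2 at 0h 35 features were called at 48h, and without replicate 1 at 0h 10.

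Higher pairs included the IgG1 blocks with the surroundings of the viewpoint. The pair of 140-150 kb with 220-230 kb held 1.29%, 0.862% and 0.589% at 48h and 1.22%, 0.577% and 0.678% at 72h, against 0 and 0.259% at 0h. Its log2 change was 3.71 ± 0.84 at 48h and 3.56 ± 0.84 at 72h (limma, adjusted p = 0.016 and 0.023). Without replicate 1 at 0h, which held 0, it was 1.69 and 1.54 (adjusted p = 0.078 and 0.11). The pair of 130-140 kb with the last block, the 4 kb from 230 kb on, had 23, 16 and 4 recovered contacts at 48h and 10, 22 and 27 at 72h, against 0 and 0 at 0h. With a floor of 3 contacts over the 0h group, its share of contacts was at least 5.88-fold higher at 48h and at least 11.9-fold higher at 72h. With replicate 1 at 0h left out, the change at 48h missed the threshold (limma, adjusted p = 0.057).

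The IgG1 block with a block that holds part of the IgG3 window was higher in the signal. The pair of 140-150 kb with 160-170 kb held 0.448%, 0.163% and 0.347% at 48h and 0.581%, 0.244% and 0.285% at 72h, against 0.0651% and 0.0247% at 0h. It rested on 83, 29 and 52 recovered contacts at 48h and 73, 32 and 22 at 72h, against 4 and 3 at 0h. The log2 change was 2.43 ± 0.70 at 48h and 2.63 ± 0.70 at 72h (limma, adjusted p = 0.042 and 0.028), while voom gave adjusted p-values of 0.14 and 0.15. Without replicate 2 at 0h the adjusted p of the signal was 0.085 and 0.064.

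Pairs that joined the hs4 end of the map to other places were also called higher. The pair of 20-30 kb with 130-140 kb, near hs4 and near IgG1, held 0.278%, 0.111% and 0.165% at 48h and 0.241%, 0.303% and 0.198% at 72h, against 0.0108% and 0.0246% at 0h. It was called at 72h, at 2.95 ± 0.75 (limma, adjusted p = 0.023), and at 48h its log2 change was 2.49 (adjusted p = 0.054), while voom called it at neither time (adjusted p = 0.11 and 0.12). The pair of 30-40 kb with 110-120 kb had 35, 34 and 11 recovered contacts at 72h, against 0 and 0 at 0h, at least 16.1-fold higher with the same floor. Neither of these 2 pairs was called at 72h without replicate 1 at 0h (adjusted p = 0.075 and 0.072). The pair of 40-50 kb with the last block had log2 changes of 2.69 at 48h and 2.81 at 72h, called with all libraries (limma, adjusted p = 0.042 and 0.028). Its call at 48h was lost with either resting library left out (adjusted p = 0.057 and 0.066) and that at 72h without replicate 2 at 0h (0.059), and voom called it at neither time (0.23 and 0.21). The pair of 30-40 kb with 220-230 kb was called at 48h, at 2.18, but lost that call without replicate 1 at 0h (limma, adjusted p = 0.30) and stood at 3.27 without replicate 2. At 72h alone 10-20 with 220-230 kb, 40-50 with 70-80 kb, and 30-40 kb and 160-170 kb each with the last block passed the threshold, and at 48h alone 70-80 with 220-230 kb. Of these 5, only 160-170 kb with the last block also passed without replicate 1 at 0h, where limma gave the others adjusted p-values of 0.21, 0.14, 0.14 and 0.18 in the order named. Without replicate 2 at 0h, 40-50 with 70-80 kb did not pass either (adjusted p = 0.059, limma).

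Lower pairs included the stretch before the viewpoint with itself. Contacts within 210-220 kb held 2.95%, 2.70% and 2.83% at 48h and 2.63%, 3.12% and 2.85% at 72h, against 6.09% and 5.58% at 0h. Their log2 change was -1.04 ± 0.19 at 48h and -1.02 ± 0.19 at 72h (limma, adjusted p = 0.0035 and 0.0027), and voom called them lower at both times too. The pair of 120-130 kb with 190-200 kb was called lower at both times, with 0, 3 and 0 recovered contacts at 48h and none at 72h, against 12 and 18 at 0h. Its share at 72h was at least 16.5-fold lower with a floor of 3 contacts over the 72h group. Its call was lost at each time when any 1 activated library of that time was left out (limma, adjusted p of 0.087 to 0.13 at 48h and 0.051 to 0.061 at 72h). The pair of 70-80 kb with 120-130 kb had none at 48h, against 22 and 24 at 0h, at least 37.4-fold lower. At 48h 60-70 kb with itself, 100-110 with 210-220 kb and 160-170 with 190-200 kb were lower as well, and at 72h 80-90 with 220-230 kb and 170-180 with 190-200 kb. Contacts of 60-70 kb with itself were not called in recovered contacts (log2 change of -0.43, voom, adjusted p = 0.32). Without replicate 1 at 0h, the log2 change of 100-110 with 210-220 kb at 48h was -2.98 (adjusted p = 0.22), and 70-80 with 120-130 kb and 160-170 with 190-200 kb were not called either (limma, adjusted p = 0.18 and 0.12). At 72h, 170-180 with 190-200 kb lost its call with either resting library left out (limma, adjusted p = 0.14 and 0.064), and 80-90 with 220-230 kb lost its call without replicate 2 at 0h, at -2.78 (adjusted p = 0.14).

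**Figure D5:**
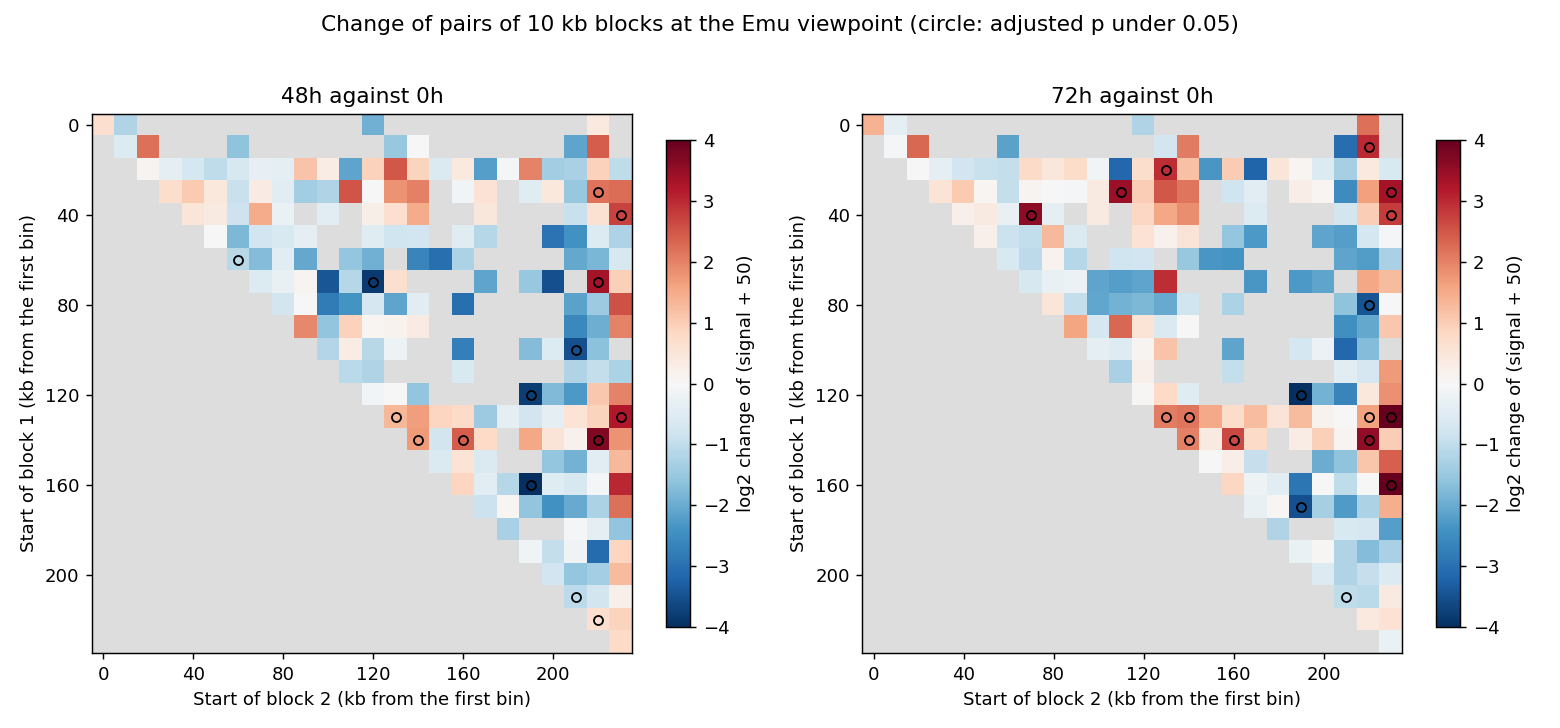
Log2 change of (signal + 50) against 0h for each tested pair of 10 kb blocks, at 48h on the left and 72h on the right, with block starts in kb on both axes. Red is higher and blue lower than at 0h, grey was not tested, and circles mark called pairs. Circles on the diagonal at 130 and 140 kb are red at both times, and that at 210 kb is blue at both.

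At the finest scale, 10 pairs of 1 kb bins, 2.55% of those tested, were called at 48h, 9 higher (2.3%) and 1 lower (0.255%), and 10 (2.55%) at 72h, all higher. Most were a bin paired with itself. Bin 135 kb with itself held 0.267%, 0.367% and 0.429% at 48h and 1.04%, 0.829% and 0.890% at 72h, against 0 and 0.0199% at 0h. It had 42, 61 and 76 recovered contacts at 48h and 100, 98 and 106 at 72h, against 0 and 2 at 0h. Its log2 change was 3.88 ± 0.52 at 48h and 5.24 ± 0.52 at 72h (limma, adjusted p = 0.00064 and 1.3e-05). Bins 136, 140, 142 and 166 kb with themselves and 133 with 134 kb were also called higher at both times. With each library left out in turn, 133 with 134 kb kept its call in 1 of 8 fits at 48h and 4 of 8 at 72h. Bins 136, 140 and 142 kb with themselves each kept theirs in 7 of 8 fits at 48h. At 72h bins 136, 140 and 166 kb with themselves each did so in 7 of 8. Without replicate 1 at 0h, the log2 changes at 48h of bins 136, 140 and 142 kb with themselves were 2.55, 2.49 and 4.16. Without replicate 2 at 0h they were 4.20, 5.03 and 1.63. Bin 178 kb with itself was lower at 48h, with 0, 4 and 0 recovered contacts, against 10 and 13 at 0h. Its call held in 6 of 8 such fits. The split of these calls rested on the 0h libraries. Without replicate 1 at 0h it was 4 higher and 10 lower at 48h, and 3 higher and 9 lower at 72h. Without replicate 2 at 0h it was 5 higher and 26 lower at 48h, and 10 higher and 24 lower at 72h.

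Seen from hs4, some blocks of the same stretch of the locus changed in another way. The titles of both probes carry the same replicate numbers. Nothing in them says whether the 2 probes were used on the same cells, and the main fit treated all libraries as independent. In the 8 libraries of the hs4 probe from the same time course, blocks were compared where they lay more than 20 kb from either viewpoint, 15 in all. The change differed between Emu and hs4 in 8 of 15 blocks (53.3%) at 48h and 3 of 15 (20%) at 72h. At 140-150 kb the Emu signal averaged 5.98 ± 0.21% at 48h and 7.32 ± 0.12% at 72h (SD, n = 3 each), against 2.28 ± 0.60% at 0h (n = 2). The hs4 signal there averaged 2.90 ± 0.34% and 3.51 ± 0.05%, against 2.13 ± 0.21%. The log2 change was higher for Emu by 0.97 ± 0.23 at 48h and 0.99 ± 0.23 at 72h (limma interaction, adjusted p = 0.0037 and 0.0075). Without replicate 1 of hs4 at 0h the difference at 72h was 0.88 (adjusted p = 0.057), and no block was called at 72h, where 3 of 15 had an unadjusted p under 0.05.

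At the block next to it no difference was called. At 130-140 kb the log2 change was 0.93 for Emu and 1.38 for hs4 at 48h, and 1.68 and 1.62 at 72h, a difference of -0.44 ± 0.24 and 0.05 ± 0.24 (limma interaction, adjusted p = 0.13 and 0.85). At 120-130 kb the direction of the difference was turned. Emu averaged 2.33 ± 0.34% at 48h and 2.95 ± 0.64% at 72h, against 3.18 ± 0.20% at 0h, while hs4 averaged 5.75 ± 0.71% and 5.92 ± 0.38%, against 2.67 ± 0.32%. The Emu change was lower by 1.56 ± 0.27 and 1.28 ± 0.27 on the log2 scale (adjusted p = 0.001 and 0.006). The block at 110-120 kb, which holds the piled-up bin pair of replicate 1 at 0h, differed by -1.91 at 48h and -1.75 at 72h, and without that library by -1.03 (adjusted p = 0.017) and -0.87 (adjusted p = 0.074). At 48h the Emu change was also lower at 60-70, 70-80, 80-90, 100-110 and 170-180 kb, but with both probes scaled to the 15 blocks kept the count was 4, with 2 higher and 2 lower for Emu.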

How the data were processed

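Primary B cells from mouse went through Tri-C, with formaldehyde crosslinking, NlaIII digestion, ligation, sonication and 2 rounds of capture, per the labels' protocols. Reads were aligned with Bowtie2 to mm9, per the submitters' processing notes. No source used here gives the Bowtie2 version, how duplicates were treated or the contact caller. The deposited values are a signal, 1 square matrix of 1 kb bins per library with only its upper triangle filled, and the sums show a scaling to 300000 by the authors. Bin positions carry no coordinates.

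Values off the diagonal were fitted as a scale times whole contacts over a whole-number divisor per bin, library by library, with the smallest divisor taken in ties. With a tolerance of 0.04, 99.0% to 99.9% of off-diagonal values under 20 contacts were whole, which the fit aimed at. Diagonal values, left out of the fit, were whole within 0.04 in 88.0% to 97.6% for the 8 Emu libraries and in 62.9%, 81% and 83.1% for 3 Emu libraries from a separate series labelled without TPL. The mean divisor was 4.09 to 4.46. No source used here says what the divisor stands for or whether contacts were counted by unique molecule, and floors cover counting error only.

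The features were 24 blocks of 10 kb (the last of 4 kb), 300 block pairs with 4 sites and 10 site pairs, the 1 kb bins, and all pairs of bins. Those with a mean of at least 100 were tested with limma 3.58.1 (R 4.3.3) on log2(signal + 50), so that changes of low values are understated. The 8 libraries shared 1 fit, with a variance trend except for blocks. The Emu and hs4 comparison fitted 16 libraries with an interaction. Benjamini-Hochberg adjustment ran over all features of a kind at 0.05. Single values had exact permutation tests in Python 3.11.15. Voom on recovered contacts (limma) was an alternative. Others were pseudocounts of 10 and 200, no filter, median-of-ratios scaling, other block sizes, leaving out contacts near the viewpoint or of a bin with itself, a replicate block, and leaving out each library. Rescaled contacts and leaving out the bin pair beside the viewpoint were added after seeing the data. Contact recovery and the main limma fits were tested on simulated data, and the permutation p on made-up values. The alternatives were not.

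Named regions were all 14 sites and site pairs, every called block, and, among called features that did not overlap between groups, the 8 block pairs and 8 bins with the largest change each way, and 5 bin pairs each way. The bin pair beside the viewpoint, the 0h bin pairs and bins 137 to 139 kb were named after their values were seen. The regions, sites and tests were chosen with earlier results of these data known. The replicate numbers were not used to pair the libraries in the main fits.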

Additional observations from a re-analysis of the deposited data

Results flagged for a closer look

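The signal at the IgG1 site was also high in libraries that no comparison here used. In the 3 libraries of the Emu probe labelled 72h activated without TPL, from the TPL series, the IgG1 window held 7.61%, 5.59% and 6.12% of the signal. The 0h libraries held 1.64% and 2.72% there. They had 5006, 4198 and 6629 recovered contacts, fewer than any Emu library of the activation series. The 2 series were made separately and were not tested against each other. In the same 3 libraries 60-70 kb held 4.50%, 5.07% and 3.06%, against 5.48% and 5.08% at 0h. The 72h libraries of the activation series held 2.91%, 2.80% and 2.24% there, less than any of these 3. The fall at 60-70 kb was thus smaller in these libraries, with 5.07% close to the lower resting value. At 210-220 kb they held 5.32%, 4.51% and 4.20%, against 9.45% and 8.23% at 0h.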

How the results depend on the processing

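Calls for the IgG1 site and the IgG1 window with itself kept their direction at both times in all 19 alternatives run, the site's log2 change spanning 1.19 to 1.92 at 48h and 1.52 to 2.24 at 72h. The same held for 140-150 kb in 18 alternatives and 210-220 kb in 17. Counts of called features moved more. Blocks at 48h (12) became 7 without contacts near the viewpoint and 6 by voom or with rescaled contacts, and at 72h (5) became 8 by voom. Block pairs and sites at 48h (17) became 29 by voom and 26 with 20 kb blocks, and at 72h (21) became 12 without contacts near the viewpoint, 10 by voom and 11 with 20 kb blocks. Bins at 72h (15) became 6 without contacts near the viewpoint. Bin pairs at 48h (10) became 1 without pairs of a bin with itself and 16 by voom, and at 72h (10) became 6 with no filter and 2 without pairs of a bin with itself. The Emu and hs4 difference at 48h (8) became 4 when scaled to the blocks kept. The causes were not tested.

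Deviations of same-numbered libraries correlated between -0.043 and 0.045, and those of different-numbered ones between -0.0996 and 0.113. This does not show whether replicate numbers pair the libraries. The 2 libraries at 0h deviate as mirror images of each other, and the title of one names several replicates together. With a replicate block, counts were 6 blocks, 7 block pairs and sites and 6 bin pairs at 48h. That block turned IgG2a with IgG1 at 48h to 0.18 and the IgG2a site at 72h to 0.11.

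Without each library in turn, counts ran from 6 to 13 and 5 to 7 for blocks at 48h and 72h, 4 to 35 and 7 to 31 for block pairs and sites, 6 to 29 and 9 to 24 for bins, 7 to 31 and 6 to 34 for bin pairs, and 6 to 9 and 0 to 4 for the Emu and hs4 difference, the 0 at 72h being without replicate 1 of hs4 at 0h. Log2 changes that turned ran from -0.71 to 0.52 for hs4 with IgG3 at 48h, -0.92 to 0.26 for IgG2a with IgG1 at 48h and -0.44 to 0.15 for the IgG2a site at 72h. IgG1 with hs4 over expected differed from 0h by -0.130 to 0.300 at 48h and -0.0474 to 0.382 at 72h. Partners of IgG1 at IgG3 differed by -0.357 to 0.341 and -0.577 to 0.150 percentage points, and those near Emu by -3.79 to 9.79 and -8.10 to 5.47.

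Other turned log2 changes, none of them called in the signal, were 220-230 kb at 72h (-0.37 by voom and rescaled contacts), hs4 with IgG3 at 48h (0.13 by median of ratios, 0.17 without contacts near the viewpoint, 0.025 without the bin pair beside the viewpoint), the IgG2a site at 72h (0.067 without contacts near the viewpoint, 0.19 by voom and rescaled contacts) and 60-70 kb with itself at 72h (0.042 by voom, 0.018 with rescaled contacts). The difference in ends over 50 kb away turned at 48h to 4.86 percentage points without contacts near the viewpoint and 8.69 in recovered contacts, and at 72h to -3.16 without pairs of a bin with itself and -5.85 over 100 kb. IgG1 with hs4 over expected turned to -0.0232 at 72h in recovered contacts. Partners of IgG1 at IgG3 turned at 48h to 0.453 without pairs of a bin with itself, 0.129 without contacts near the viewpoint and 0.260 in recovered contacts, and at 72h to 0.165 and 0.473. Partners near Emu turned to -2.47 at 48h in recovered contacts and 1.29 at 72h without pairs of a bin with itself. Many pairs of distant sites held under 10 contacts at 0h, which limits the precision of their changes.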
